A study of Mus musculus with 60 samples.

Results

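Collagen genes were examined in hippocampus of WT and R6/1 mice. The members are the rows of the deposited expression table whose symbol has the form of a collagen chain gene (Col, a type number, a, a chain number), which gave 44 of 24508 genes. The rule reads the symbol alone. R6/1 is a transgenic mouse line that carries a fragment of the human huntingtin gene with an expanded CAG repeat, driven by the human gene's own promoter, and is used as a model of Huntington's disease. All mice were 30 weeks old and of mixed CBA and C57BL/6 background, so that the groups differ by the transgene alone as far as the labels say. For RNA-seq there were 9 libraries of each genotype, which the protocol calls independent biological replicates, and the sex of the mice is not given. Lamin B1 ChIP-seq, made from pools of 5 mice in 3 replicates per genotype, gave 1 list of lamina domains per genotype. ATAC-seq was not used here.

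Collagens are trimers of alpha chains wound into a triple helix, and each chain is the product of a gene of its own. Fibrillar collagens build cables in stroma, type IV collagen builds the sheet of basement membranes, and FACIT collagens (fibril-associated collagens with interrupted triple helices) sit on the surface of fibrils. In brain, collagen protein lies mostly around blood vessels, in the meninges and in the choroid plexus, while a few collagens, among them the products of Col25a1 and Col19a1, are known to be made by neurons.

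The libraries held between 12299434 and 16736544 reads on genes. All markers listed for dentate granule (5), CA1 pyramidal (4) and CA3 pyramidal neurons (5), which define hippocampus, were above the expression filter. All of them were called lower in R6/1 in the test described below, beside 23.5% of all tested genes. Libraries were not alike in their level of a choroid plexus marker, while the amount of non-neural tissue in them was not measured. Ttr, the most abundant transcript of choroid plexus epithelium, ran from 19.0 to 1035 RPKM in WT (median 112) and from 33.4 to 1696 in R6/1 (median 375). For the collagen genes 3 libraries stood apart. WT replicate 5 was the highest WT library for 16 of the 27 tested members, WT replicate 1 was the lowest for 15, and R6/1 replicate 4 was the lowest R6/1 library for 14. The counts of calls, the spread and the correlations are also given without them.

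Collagen transcripts were lower in R6/1 hippocampus more often than higher. Of the 44 members, 27 had a mean of at least 0.5 RPKM (reads per kilobase of gene, scaled for depth) and were tested, with limma on log2(RPKM + 0.5), Benjamini-Hochberg adjustment over all 14446 tested genes and a threshold of 0.05. Of these, 14 fell in R6/1, 1 rose (Col9a2, a chain of type IX collagen), and 12 did not pass the threshold. The 14 that fell are 51.9% of the tested members, while 23.5% of all tested genes were called lower. The 1 that rose is 3.70% of them, against 24.8% of all tested genes called higher. Calls in either direction made up 55.6% of the tested members and 48.3% of all tested genes. Log2 fold changes of the tested members had a median of -0.28 and a range from -0.75 to 0.77, while the median over all tested genes was 0.004. In each of the 14 members that fell, all 9 R6/1 libraries were under the WT median. This describes genes that were called from the same values. It also held for Col4a5, Col11a1 and Col23a1, which were not called. Genotypes did not overlap at all in 5 of the 27 tested members (Col5a2, Col12a1, Col15a1, Col19a1 and Col20a1), all of them called. Of all tested genes, 11.9% showed no overlap. Of the called members, 4 (Col15a1, Col20a1, Col22a1 and Col26a1) were under 0.5 RPKM in R6/1 and passed the filter only through their WT level. A fold change on this scale understates the change of genes near 0.5 RPKM.

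**Figure D1:**
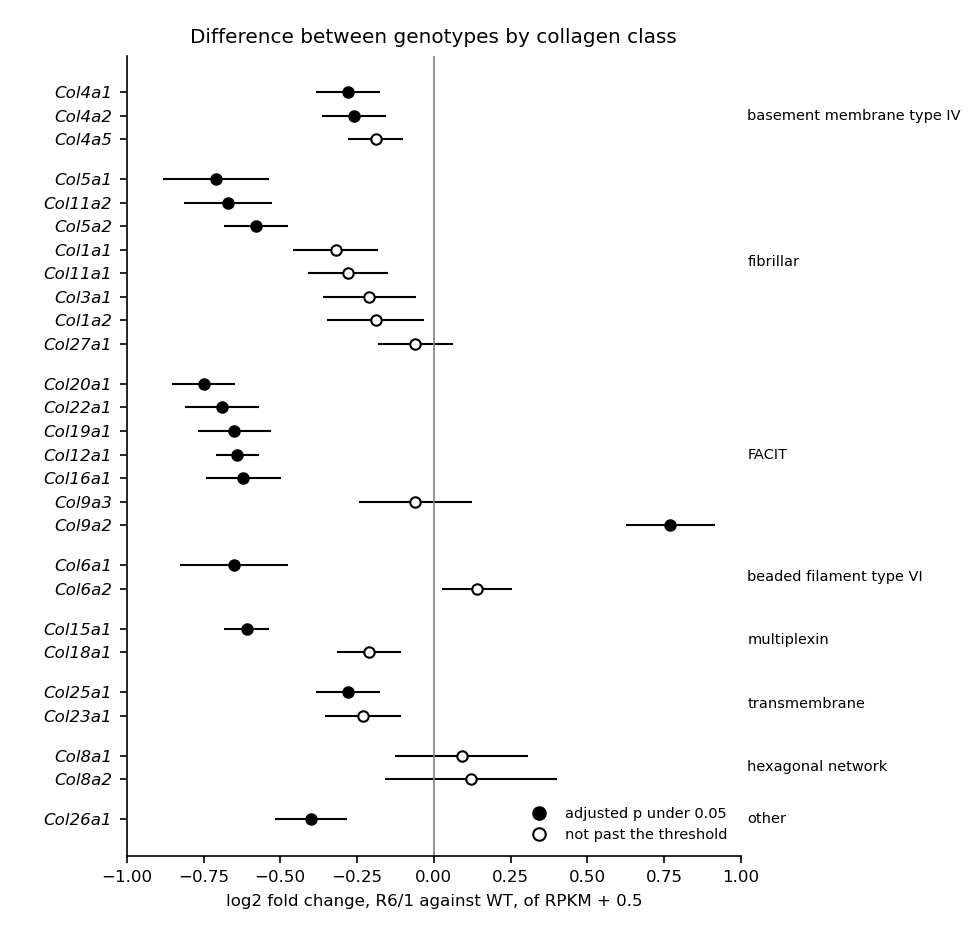
Log2 fold change of RPKM + 0.5, R6/1 against WT, of the 27 tested collagen genes by class. Points are limma estimates and bars their standard errors (9 libraries per genotype), and filled points have an adjusted p under 0.05. The 14 filled points left of 0 run from -0.75 (Col20a1) to -0.26 (Col4a2), and Col9a2 at 0.77 is the only filled point to the right.

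Without the 3 libraries named above, 15 members were called lower and 1 higher, and 22.5% of all tested genes were called lower. When depth was set by the sum of recovered reads per library in place of the deposited scaling, 11 members were called lower and 1 higher. Under that scaling the split over all genes also moved, to 17.5% called lower and 35.4% called higher. Of the 15 called members, 11 passed under every alternative in which they were tested: 4 of these (Col6a1, Col9a2, Col11a2 and Col19a1) under all 35, and 7 under 34, since their means are under the filter of 2 RPKM in the other one. Calls of Col4a1, Col4a2, Col25a1 and Col26a1 were lost under 1 or more alternatives.

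By level, a few genes made up much of the collagen transcript pool. In WT the 44 members summed to between 60.7 and 103 RPKM per library (median 80.5), and in R6/1 to between 54.3 and 63.6 (median 60.5). The highest R6/1 library was thus within the WT range, near its lower end. Col25a1, Col4a2 and Col4a1, the 3 members above 5 RPKM in WT, supplied 38.5% of this sum in WT and 40.3% in R6/1. Spread between libraries was wider in WT: the median SD of log2 values over the tested members was 0.30 in WT and 0.20 in R6/1, beside 0.14 and 0.13 over all tested genes. The SD was larger in WT for 21 of the 27 members (77.8%), and for 56.9% of all tested genes. Without the 3 libraries named above, the median SD of the members was 0.24 in WT and 0.18 in R6/1, and it was larger in WT for 19 members (70.4%) and for 48.5% of all tested genes.

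**Figure D2:**
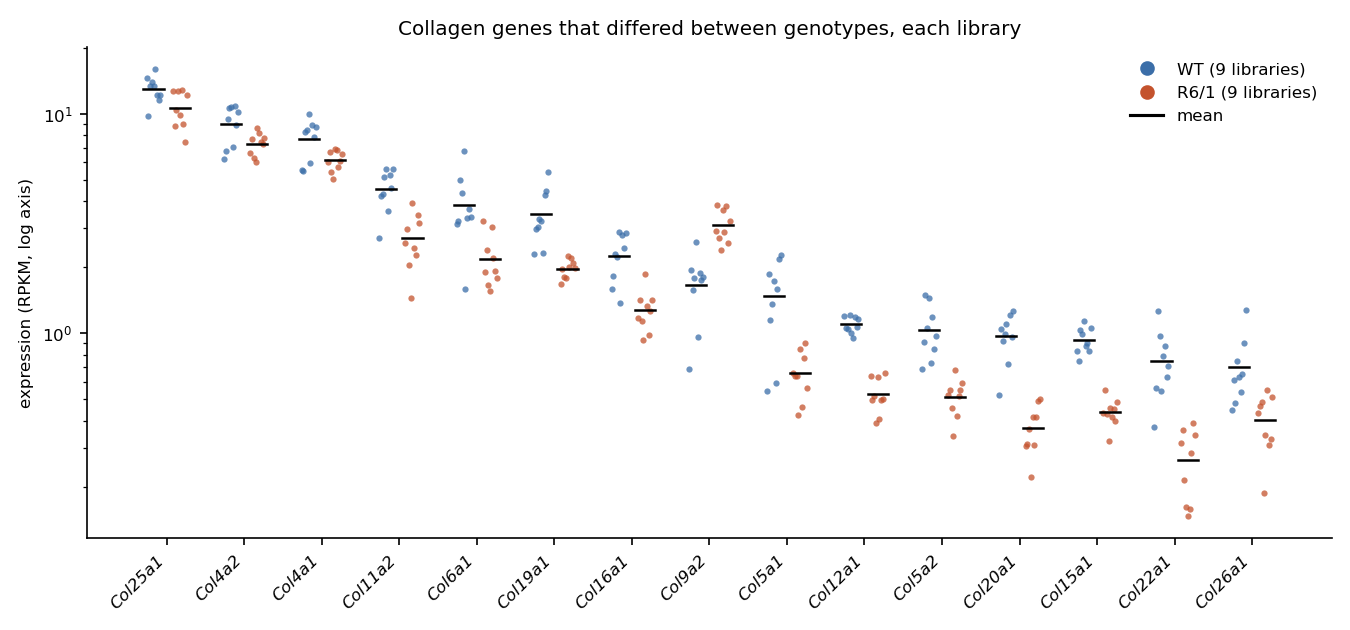
Expression (RPKM, log axis) of the 15 collagen genes with an adjusted p under 0.05, ordered by WT mean. Each point is a library (9 WT in blue, 9 R6/1 in orange) and each bar the mean of a group. For Col9a2, 7 of the 9 R6/1 points lie above the highest WT point, while the other 14 genes have all R6/1 points under the WT median.

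Type IV collagen is the network former of basement membranes, and the trimer of Col4a1 and Col4a2 chains surrounds every brain vessel. Both chains fell in R6/1, Col4a1 to 0.80 and Col4a2 to 0.814 of the WT mean RPKM. Col4a1 ran from 5.48 to 9.97 RPKM in WT (median 8.26) and from 5.02 to 6.94 in R6/1 (median 6.08). The R6/1 libraries lay in the lower part of the WT range, and 2 were under all WT libraries. Its means were 7.66 ± 1.62 (SD, n = 9) and 6.13 ± 0.667 RPKM (SD, n = 9), which is -0.28 on the log2 scale (SE 0.103, limma adjusted p = 0.0298). Col4a2 ran from 6.24 to 10.9 RPKM in WT (median 9.46) and from 5.99 to 8.64 in R6/1 (median 7.45). Here too all R6/1 libraries were under the WT median but overlapped the lower WT libraries. Its means were 8.98 ± 1.84 and 7.31 ± 0.871 RPKM, which is -0.26 on the log2 scale (SE 0.104, limma adjusted p = 0.0434). Col4a5, whose chain joins other type IV trimers, was at 1.06 ± 0.247 RPKM in WT and 0.85 ± 0.107 in R6/1 and did not pass (log2 fold change -0.19, limma adjusted p = 0.0749).

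Calls for the type IV chains were near the threshold. Without WT replicates 3, 4, 5, 7 and 9 in turn, Col4a1 had an adjusted p of 0.0511, 0.0533, 0.0614, 0.0577 and 0.0559, and without R6/1 replicates 3 and 4 one of 0.0534 and 0.0589. Col4a2 had an adjusted p of 0.0681, 0.0833, 0.0830, 0.0852, 0.0599 and 0.0780 without WT replicates 3, 4, 5, 7, 8 and 9, and of 0.0715, 0.0778, 0.0828, 0.0542 and 0.0589 without R6/1 replicates 1, 3, 4, 7 and 8. Both lost the call when depth was set by recovered reads (adjusted p 0.113 and 0.154), with voom (0.106 and 0.139) and without the 7 libraries above 500 RPKM of Ttr (0.0535 and 0.0558). Col4a2 also lost it with no filter (0.0649), without limma's trend (0.0502) and with the fibroblast list as a covariate (0.0601). Col4a5 gained it without WT replicate 1 (0.0309) or 6 (0.0450), without limma's trend (0.0492) and in the authors' deposited table (0.0324). Their direction was the same in each of these fits.

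The 6 type IV genes are 3 head-to-head pairs in the genome: the genes of a pair start next to each other and are read in opposite directions. Coordinates are on NCBIM37 (mm9). The annotated starts of Col4a1 (chr8:11198423-11312826, minus strand) and Col4a2 (chr8:11312805-11449287, plus strand) lie so close that the genes overlap by 22 bases. Col4a4 (chr1:82447298-82583424, minus strand) and Col4a3 (chr1:82583496-82718634, plus strand) leave 71 bases between them. The starts of Col4a6 (chrX:137599946-137908619, minus strand) and Col4a5 (chrX:137909928-138123778, plus strand) are 1309 bases apart. The shared sequence is shown because the levels of the first pair move together across libraries, as described further on. The first line is the whole overlap, chr8:11312805-11312826, the second the whole gap, chr1:82583425-82583495, and the third the 250 bases before the start of Col4a5, chrX:137909678-137909927, each 5′ to 3′ on the plus strand, with capitals for the motifs searched on both strands.
Col4a1/Col4a2 overlap: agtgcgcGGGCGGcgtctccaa
Col4a3/Col4a4 spacer: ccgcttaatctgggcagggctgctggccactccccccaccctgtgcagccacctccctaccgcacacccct
Col4a5 upstream: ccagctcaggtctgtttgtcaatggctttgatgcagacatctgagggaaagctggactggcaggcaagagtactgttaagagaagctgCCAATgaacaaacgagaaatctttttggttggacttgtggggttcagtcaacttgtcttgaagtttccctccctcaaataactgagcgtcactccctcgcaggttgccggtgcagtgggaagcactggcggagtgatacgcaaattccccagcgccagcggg
The motifs were the GC box (GGGCGG) and the CCAAT box (CCAAT), which share no letters that would make a match of one a match of the other. The overlap of Col4a1 and Col4a2 held 1 GC box and no CCAAT box. Of 22-base windows before the starts of protein-coding genes, 8.93% hold a GC box and 3.17% a CCAAT box. The overlap lies inside both annotated genes and not before their starts, so these windows are not of the same kind. Neither motif is in the Col4a3 and Col4a4 gap, while 26.0% and 14.4% of windows of 71 bases hold them. The window before Col4a5 held 1 CCAAT box and no GC box, against 35.0% and 39.6% of windows of 250 bases.

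Transmembrane collagens are anchored in the cell surface and shed their outer part. Col25a1, made by neurons and known for a shed fragment that is found in amyloid plaques, was the most abundant collagen transcript. It ran from 9.78 to 15.9 RPKM in WT (median 13.3) and from 7.43 to 12.8 in R6/1 (median 10.4). No R6/1 library reached the WT median and 3 were under the lowest WT library. Its means were 13.0 ± 1.80 and 10.6 ± 2.03 RPKM (log2 fold change -0.28, SE 0.103, limma adjusted p = 0.0270). This call was lost without WT replicate 6 (adjusted p 0.0541) and without R6/1 replicates 2, 7 and 8 (0.0529, 0.0516 and 0.0546), with depth set by recovered reads (0.0776) and with voom (0.0699). Without the 7 libraries above 500 RPKM of Ttr (4 WT, 3 R6/1) the log2 fold change was -0.17 (adjusted p 0.322). Col23a1, the other tested member of the class, was at 2.13 ± 0.546 RPKM in WT and 1.71 ± 0.224 in R6/1 (log2 fold change -0.23, adjusted p 0.137). It passed without WT replicate 6 (0.00193) and without the 7 libraries above 500 RPKM of Ttr (0.0386).

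FACIT collagens decorate the surface of fibrils and were the class with most calls: of 9 members, 7 were tested, of which 5 fell, 1 rose and 1 did not pass. Over all tested genes, 23.5% were called lower and 24.8% higher. Col19a1, which in hippocampus is known from inhibitory interneurons and has a role in synapse formation, ran from 2.31 to 5.44 RPKM in WT (median 3.24) and from 1.67 to 2.24 in R6/1 (median 1.97). The genotypes did not overlap. Means were 3.48 ± 1.03 and 1.97 ± 0.195 RPKM (log2 fold change -0.65, SE 0.119, limma adjusted p = 1.42e-04). Of the 8 inhibitory neuron markers, 6 were lower in R6/1 and none higher, with summed levels from 391 to 489 RPKM in WT and from 236 to 302 in R6/1, and the part of this in the Col19a1 result was not tested. In bulk tissue, fewer cells of a type and less RNA per cell cannot be told apart.

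Col12a1, whose product links fibrils to other matrix, had the smallest adjusted p of all members. It ran from 0.951 to 1.21 RPKM in WT (median 1.07) and from 0.390 to 0.657 in R6/1 (median 0.502). The gap between the groups was wide beside the spread within them. Means were 1.10 ± 0.0951 and 0.526 ± 0.0977 RPKM, so that R6/1 was at 0.479 of WT (log2 fold change -0.64, SE 0.0710, limma adjusted p = 4.12e-07). Col20a1, a FACIT of little-known function, ran from 0.526 to 1.26 RPKM in WT (median 0.994) and from 0.221 to 0.503 in R6/1 (median 0.368). Again no R6/1 library reached a WT library. Its means were 0.974 ± 0.231 and 0.371 ± 0.0929 RPKM, a ratio of 0.381 (log2 fold change -0.75, SE 0.102, limma adjusted p = 5.38e-06).

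Col16a1 ran from 1.37 to 2.89 RPKM in WT (median 2.28) and from 0.928 to 1.87 in R6/1 (median 1.26). Of the R6/1 libraries, 6 were under the WT minimum. Means were 2.26 ± 0.563 and 1.28 ± 0.280 RPKM (log2 fold change -0.62, SE 0.121, limma adjusted p = 2.75e-04). Col22a1, known from tissue junctions such as that of muscle and tendon, ran from 0.372 to 1.27 RPKM in WT (median 0.707) and from 0.147 to 0.388 in R6/1 (median 0.285). Only the highest R6/1 library overlapped the lowest WT library. Means were 0.747 ± 0.266 and 0.264 ± 0.0950 RPKM, a ratio of 0.353 (log2 fold change -0.69, SE 0.120, limma adjusted p = 8.32e-05). For Col20a1, Col15a1 (described further on) and Col22a1, voom on the reads recovered from the RPKM values, which adds no such pseudocount, gave log2 fold changes of -1.31, -1.01 and -1.41.

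Type IX collagen is a FACIT of cartilage whose chains come from Col9a1, Col9a2 and Col9a3. Here Col9a2 rose, Col9a3 did not pass and Col9a1 was under the filter. Col9a2 ran from 0.687 to 2.60 RPKM in WT (median 1.79) and from 2.39 to 3.83 in R6/1 (median 2.92). Only 2 R6/1 libraries were inside the WT range, and those were near its top. Means were 1.66 ± 0.560 and 3.11 ± 0.540 RPKM, a ratio of 1.87 (log2 fold change 0.77, SE 0.145, limma adjusted p = 1.79e-04). Col9a3, at a higher level, ran from 2.90 to 8.07 RPKM in WT (median 3.72) and from 2.68 to 7.50 in R6/1 (median 4.32). The groups overlapped nearly in full. Its means were 4.71 ± 1.94 and 4.40 ± 1.38 RPKM (log2 fold change -0.06, adjusted p 0.820).

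Fibrillar collagens form the cables of connective tissue. Of 11 members, 8 were tested, of which 3 fell and 5 did not pass, beside 23.5% of all tested genes called lower. Their median log2 fold change was -0.30. The 3 that fell are chains of the minor fibrillar types V and XI, which set the diameter of the fibrils that types I and II build. Col11a2 ran from 2.73 to 5.60 RPKM in WT (median 4.58) and from 1.45 to 3.91 in R6/1 (median 2.57). All R6/1 libraries were under the WT median and 5 were under all WT libraries. Means were 4.56 ± 0.966 and 2.70 ± 0.76 RPKM (log2 fold change -0.67, SE 0.143, limma adjusted p = 6.46e-04). Col5a2 ran from 0.690 to 1.49 RPKM in WT (median 0.971) and from 0.340 to 0.682 in R6/1 (median 0.524). The genotypes were separate. Means were 1.04 ± 0.288 and 0.515 ± 0.0994 RPKM (log2 fold change -0.58, SE 0.104, limma adjusted p = 1.08e-04).

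Col5a1 ran from 0.543 to 2.26 RPKM in WT (median 1.59) and from 0.425 to 0.904 in R6/1 (median 0.641). Its WT libraries were spread widely, and 2 of them lay among the R6/1 libraries. Means were 1.47 ± 0.623 and 0.657 ± 0.163 RPKM (log2 fold change -0.71, SE 0.172, limma adjusted p = 0.00194). The main stromal chains did not pass. Col1a1 and Col1a2, the chains of type I collagen, were at 2.08 ± 0.764 and 3.29 ± 1.27 RPKM in WT and at 1.53 ± 0.344 and 2.72 ± 0.567 in R6/1 (log2 fold changes -0.32 and -0.19, adjusted p 0.0637 and 0.326). Col3a1, the chain of type III collagen, was at 0.762 ± 0.331 and 0.583 ± 0.230 RPKM (log2 fold change -0.21, adjusted p 0.260). Col11a1, the partner of Col11a2 in type XI collagen, was at 1.46 ± 0.468 and 1.08 ± 0.191 RPKM (log2 fold change -0.28, adjusted p 0.0844), and Col27a1, a cartilage chain, at 0.617 ± 0.168 and 0.577 ± 0.225 (-0.06, 0.692). Without WT replicate 1, Col11a1 and Col1a1 passed (adjusted p 0.00407 and 0.0353), and Col1a1 also passed without R6/1 replicate 1 (0.0408). Col11a1 also passed with a replicate block (0.0475), without the 3 libraries that stood apart (0.00770) and without those above 500 RPKM of Ttr (0.0291). Both passed in the authors' deposited table (0.0260 for Col11a1 and 0.0280 for Col1a1). Reads of Col1a1, Col9a3 and Col18a1 could include reads of an overlapping gene (Gm17329, Tcfl5 and Slc19a1), since strand use in the counting is not given in the sources used here.

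Type VI collagen forms beaded filaments next to basement membranes from 3 different chains. Col6a1 ran from 1.58 to 6.79 RPKM in WT (median 3.39) and from 1.55 to 3.23 in R6/1 (median 1.91). All R6/1 libraries were under the WT median. Means were 3.83 ± 1.45 and 2.18 ± 0.597 RPKM, a ratio of 0.570 (log2 fold change -0.65, SE 0.175, limma adjusted p = 0.00451). Col6a2, which lies on the same strand of chromosome 10 with 85161 bases between the genes, was at 1.26 ± 0.291 RPKM in WT and 1.45 ± 0.344 in R6/1 (log2 fold change 0.14, adjusted p 0.338).

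Multiplexins are collagens of the basement membrane zone that carry sugar chains. Col15a1 ran from 0.751 to 1.14 RPKM in WT (median 0.907) and from 0.324 to 0.551 in R6/1 (median 0.435). The genotypes did not overlap. Means were 0.934 ± 0.128 and 0.438 ± 0.0623 RPKM, a ratio of 0.469 (log2 fold change -0.61, SE 0.0721, limma adjusted p = 9.56e-07). Col18a1, whose product is cut to release endostatin, was at 1.37 ± 0.361 and 1.10 ± 0.190 RPKM (log2 fold change -0.21, adjusted p 0.0956), and passed without WT replicate 8 (0.0493). Col26a1, of no established class here, ran from 0.447 to 1.28 RPKM in WT (median 0.629) and from 0.188 to 0.551 in R6/1 (median 0.432). Means were 0.70 ± 0.259 and 0.402 ± 0.117 RPKM (log2 fold change -0.40, SE 0.117, limma adjusted p = 0.00808). R6/1 libraries filled the range from below the WT minimum to below the WT median.

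The network-forming chains Col8a1 and Col8a2, of type VIII collagen known from the cornea and vessel walls, did not pass. Col8a1 was at 1.01 ± 0.540 RPKM in WT and 1.14 ± 0.698 in R6/1 (log2 fold change 0.09, adjusted p 0.755), and Col8a2 at 1.21 ± 0.854 and 1.34 ± 0.865 (0.12, 0.752). Their libraries differed within each genotype far more than the genotypes did.

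The 17 members under the filter were at the following means over all 18 libraries. Col5a3 was at 0.446, Col6a3 at 0.424, Col13a1 at 0.408, Col2a1 at 0.351, Col4a6 at 0.316 and Col14a1 at 0.216 RPKM. Col4a4 was at 0.152, Col7a1 at 0.137, Col9a1 at 0.128, Col28a1 at 0.125 and Col24a1 at 0.106 RPKM. Col4a3 was at 0.0966, Col6a4 at 0.0689, Col6a6 at 0.0626, Col10a1 at 0.0578, Col17a1 at 0.0489 and Col6a5 at 0.0430 RPKM. These include the defining chains of cartilage (Col2a1, Col10a1), of anchoring fibrils in skin (Col7a1) and of the kidney type of basement membrane (Col4a3, Col4a4). Only 2 members had a library with 0 reads. In a fit with no filter, 1 of the 17 was called higher (Col5a3, log2 fold change 0.47, limma adjusted p = 6.80e-04) and 5 lower (Col2a1, Col14a1, Col6a6, Col6a3 and Col6a5, from -0.59 to -0.10), while 17.6% of all genes in that fit were higher and 17.7% lower. Col2a1 was the only one of these with no overlap in RPKM, with 345 reads over the 9 WT libraries and 128 over the 9 R6/1 libraries. Fold changes on the scale of log2(RPKM + 0.5) understate changes at such levels: Col6a6 was at 0.167 of its WT mean RPKM.

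In the authors' deposited table, 22 of the 44 members were lower and 2 higher at an adjusted p under 0.05, beside 20.4% and 20.0% of all genes with an adjusted p there. All 15 members called here were called there in the same direction, including Col12a1 (log2 fold change -1.02) and Col9a2 (0.79).

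Markers of other cell types were also lower in R6/1, to different extents. All 5 astrocyte markers were called lower, as were 4 of 5 oligodendrocyte (80.0%) and 3 of 5 microglia markers (60.0%), beside 23.5% of all tested genes. None of these markers was higher. Their part in the collagen results was not tested. Of 12 endothelial markers, 4 were lower in R6/1 (33.3%, beside 23.5% of all tested genes) and none higher, and their summed level ran from 88.2 to 149 RPKM in WT (median 128) and from 98.8 to 140 in R6/1 (median 107). Of 11 markers of mural cells (pericytes and smooth muscle of vessel walls), 2 were lower (18.2%, under the share of all genes) and none higher, with sums from 90.1 to 174 RPKM in WT (median 124) and from 92.5 to 121 in R6/1 (median 107). Of 13 tested fibroblast and leptomeningeal markers, 2 were higher and 2 lower, and of 14 choroid plexus markers none passed in either direction. With the endothelial list as a covariate, 12 members were called lower (21.1% of all genes), and with the mural list 11 (21.0%). Over the tested members the median fold change became -0.17 and -0.11 on the log2 scale. Col4a1 went to -0.15 and -0.11 (adjusted p 0.254 and 0.324) and Col4a2 to -0.11 and -0.09 (0.384 and 0.437). Col26a1 lost its call with the mural list (-0.31, adjusted p 0.0586). Col5a1 and Col11a2 kept theirs at a smaller size, -0.43 and -0.43 with the endothelial list and -0.47 and -0.40 with the mural list. These covariates were chosen after seeing the data, and both lists are themselves lower in places in R6/1, so that the part of vessel content in these results cannot be told apart from the genotype.

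Across WT libraries collagen genes tended to vary together, while across R6/1 libraries the median correlation was within its standard error of 0. Over the 351 pairs of tested members, the median Pearson r of log2 values was 0.42 in WT (quartiles 0.10 and 0.68, leave-one-out standard error 0.10) and 0.16 in R6/1 (-0.17 and 0.46, standard error 0.19). Pairs of all tested genes had a median of 0.00 with quartiles of -0.28 and 0.28 in each genotype. In WT, 80.9% of member pairs were above 0 and 22.5% above 0.7, and in R6/1 60.4% and 9.12%. For all genes 2.78% and 2.62% were above 0.7. Pairs share libraries and genes and are not independent, and the difference between genotypes was not tested.

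**Figure D3:**
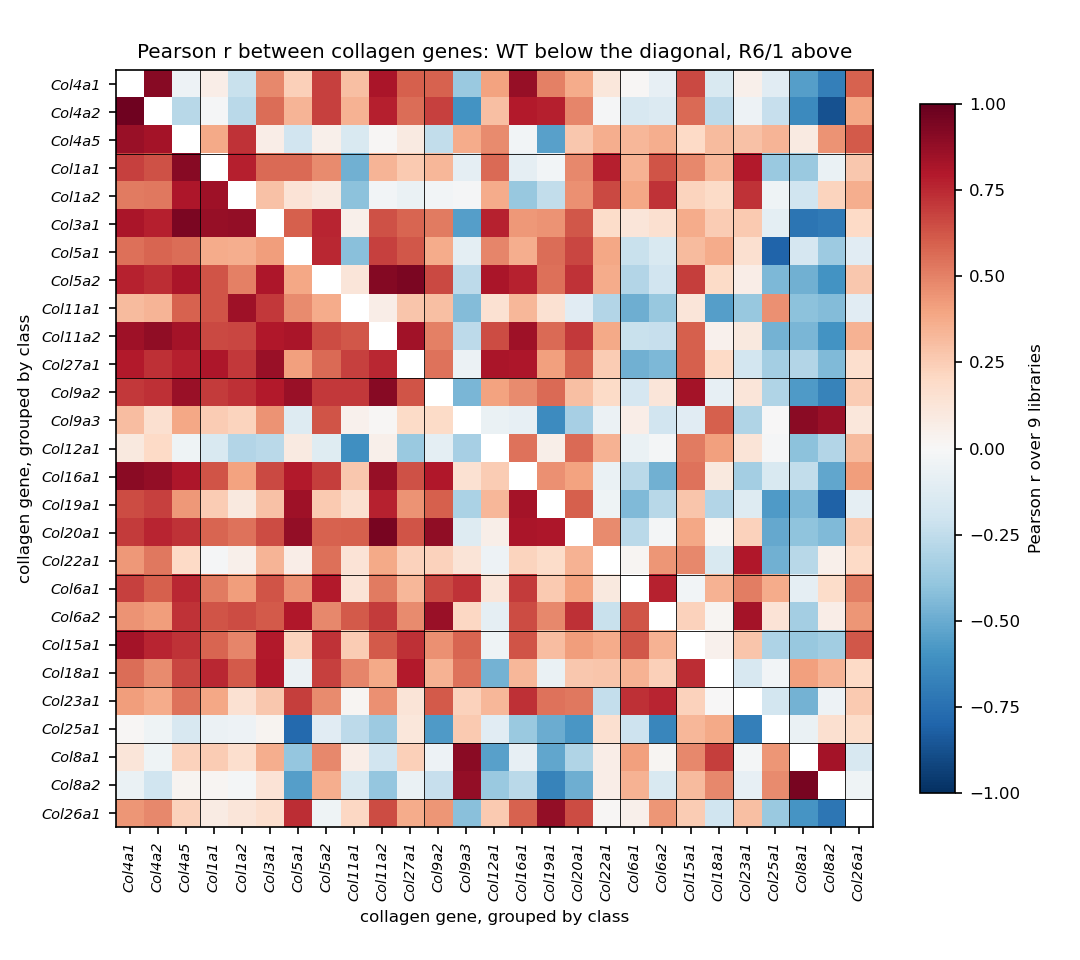
Pearson r of log2(RPKM + 0.5) between each pair of the 27 tested collagen genes over 9 WT libraries (below the diagonal) and 9 R6/1 libraries (above), grouped by class. Red fills most of the WT triangle (median 0.42) and less of the R6/1 triangle (median 0.16), and Col25a1, Col8a1 and Col8a2 form pale or blue bands.

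These medians rested in part on the 3 libraries that stood apart. Without WT replicates 1 and 5 the WT median was 0.27, and without R6/1 replicate 4 the R6/1 median was -0.02. Without R6/1 replicate 5 it was 0.26. By gene, Col4a5 had the highest median r with the other members in WT (0.72), followed by Col9a2 (0.68), Col3a1 (0.66) and Col11a2 (0.66). Col25a1 had the lowest (-0.11), with an r of -0.78 to Col5a1. In R6/1 Col5a2 had the highest median (0.42) and Col8a1 the lowest (-0.35), and Col25a1 again opposed Col5a1 (-0.80). An exact permutation test over all 362880 pairings of 9 libraries, adjusted over the 702 pairs of both genotypes, passed for 3 pairs in WT and 1 in R6/1, with 96 and 47 pairs at an unadjusted p under 0.05. No pair passed in both. The pair in R6/1 was Col5a2 and Col27a1 (r 0.94 and rho 0.98, exact permutation, adjusted p 0.0416 and 0.0348, r 0.92 without the 2 libraries farthest from the median). Those in WT were Col3a1 and Col4a5 (r 0.94 and rho 0.90, exact permutation, adjusted p 0.0416 and 0.0949, r 0.79 without 2 libraries), Col4a1 and Col4a2, and Col8a1 and Col8a2.

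Chains that assemble in one molecule or fibril, or whose genes are neighbours, were compared as a fixed list of pairs, of which 11 had both genes tested (22 exact permutation tests, adjusted together). In each genotype, 6 of the 11 passed by Pearson's r. By Spearman's rho 5 passed in WT and 1 in R6/1 (Col4a1 and Col4a2). Col4a1 and Col4a2 had an r of 0.91 in R6/1 (rho 0.93, exact permutation p 6.12e-04 and 7.50e-04, adjusted 0.00449 and 0.00550), and of 0.82 without the 2 libraries farthest from the median of Col4a1. In WT the libraries fell into separate clusters, 3 (replicates 1, 2 and 6) at or below 5.98 RPKM of Col4a1 and 6 at or above 7.79. Within the 6, r was 0.75 (exact permutation p 0.0694) and rho 0.89 (p 0.0333), and the 3 low libraries were low in both genes. Col1a1 and Col1a2 had an r of 0.85 in WT and 0.78 in R6/1 (exact permutation, adjusted p 0.0143 and 0.0314). Their rho was 0.85 and 0.78 (adjusted 0.0334 and 0.0541), and r without 2 libraries was 0.86 and 0.71. These type I chains thus varied together by r in both genotypes, at levels whose order was the same, Col1a2 above Col1a1.

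Col1a1 and Col3a1 had an r of 0.87 in WT (rho 0.82, exact permutation, adjusted p 0.00505 and 0.0395) and 0.57 in R6/1 (adjusted 0.167). Col1a2 and Col3a1 had one of 0.88 in WT (rho 0.77, exact permutation, adjusted p 0.0143 and 0.0588), which was 0.33 without the 2 libraries farthest from the median and so rests on those, and 0.29 in R6/1 (adjusted 0.509). Col8a1 and Col8a2 had an r of 0.83 in R6/1 (rho 0.62, exact permutation, adjusted p 0.0143 and 0.189), which was 0.45 without 2 libraries, and in WT fell into clusters that are described with the choroid plexus markers. The lowest values in WT were those of Col9a2 and Col9a3 (0.19, and -0.46 in R6/1), Col5a2 and Col11a1 (0.37 and 0.12) and Col5a1 and Col5a2 (0.39 and 0.75). Of these only Col5a1 and Col5a2 in R6/1 passed (exact permutation, adjusted p 0.0362, and 0.216 by rho). The count of 6 in WT was 4 without replicate 1 and 2 without replicate 5. In R6/1 it was 3 without replicate 1, 4 without replicate 6 or 7, 1 without replicate 3 or 4, and 5 without any of the others. Without the 3 libraries that stood apart it was 2 in WT and 1 in R6/1.

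**Figure D4:**
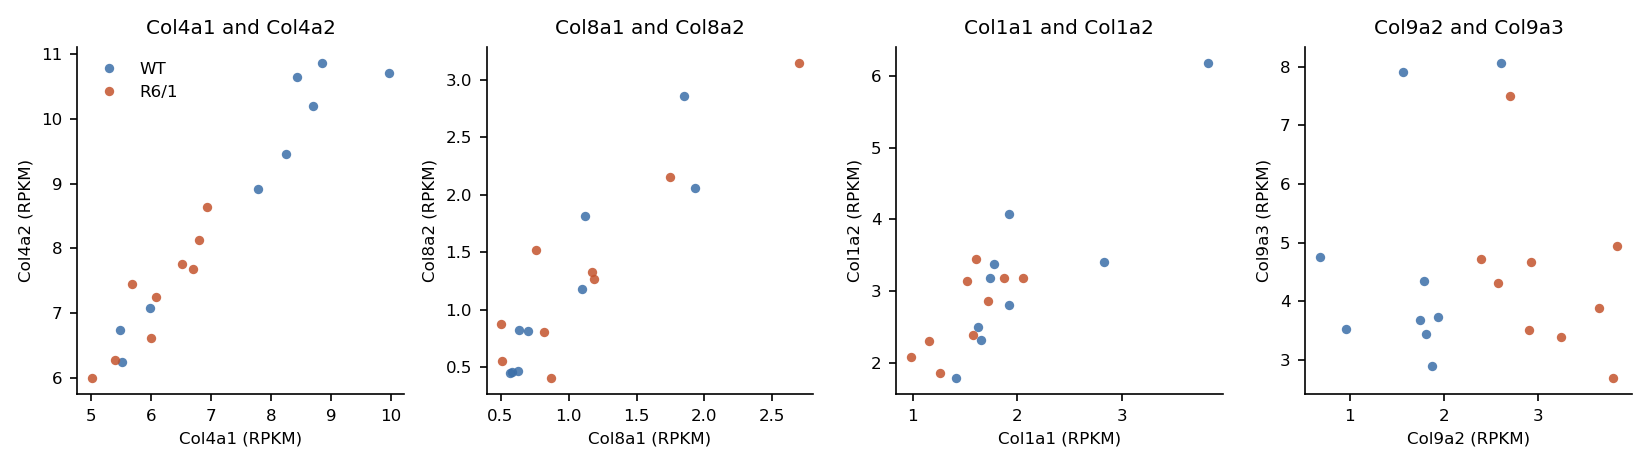
Expression (RPKM) of 4 pairs of partner chains, with a point per library (9 WT in blue, 9 R6/1 in orange). Col4a1 and Col4a2 lie along a line (r 0.91 in R6/1), 1 WT library stands apart in Col1a1 (3.82 RPKM), and Col9a2 and Col9a3 show no line (r 0.19 in WT).

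Levels of Col8a1, Col8a2 and Col9a3 went with those of choroid plexus markers across libraries. The part of carried-over choroid plexus tissue in this was not tested. In WT, the 4 libraries above 500 RPKM of Ttr (555 to 1035) had 1.10 to 1.93 RPKM of Col8a1, and the 5 others (19.0 to 112 RPKM of Ttr) had 0.571 to 0.704. Col8a2 was at 1.18 to 2.86 against 0.449 to 0.818 RPKM, and Col9a3 at 3.53 to 8.07 against 2.90 to 4.35. The WT libraries thus fell into separate clusters for both type VIII chains and overlapped for Col9a3. Clusters of 4 and 5 libraries are too small for a correlation within them. In R6/1, where Ttr had no such gap, the r with the mean log2 level of the choroid plexus list was 0.96 for Col8a2, 0.93 for Col8a1 and 0.92 for Col9a3 (exact permutation, adjusted p 0.00848, 0.0144 and 0.0144 over 216 tests of members and lists). Spearman's rho was 0.90, 0.85 and 0.87 (exact permutation, adjusted p 0.0604, 0.0690 and 0.0609). Without the 2 libraries farthest from the median of the list, r was 0.92, 0.84 and 0.79.

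**Figure D5:**
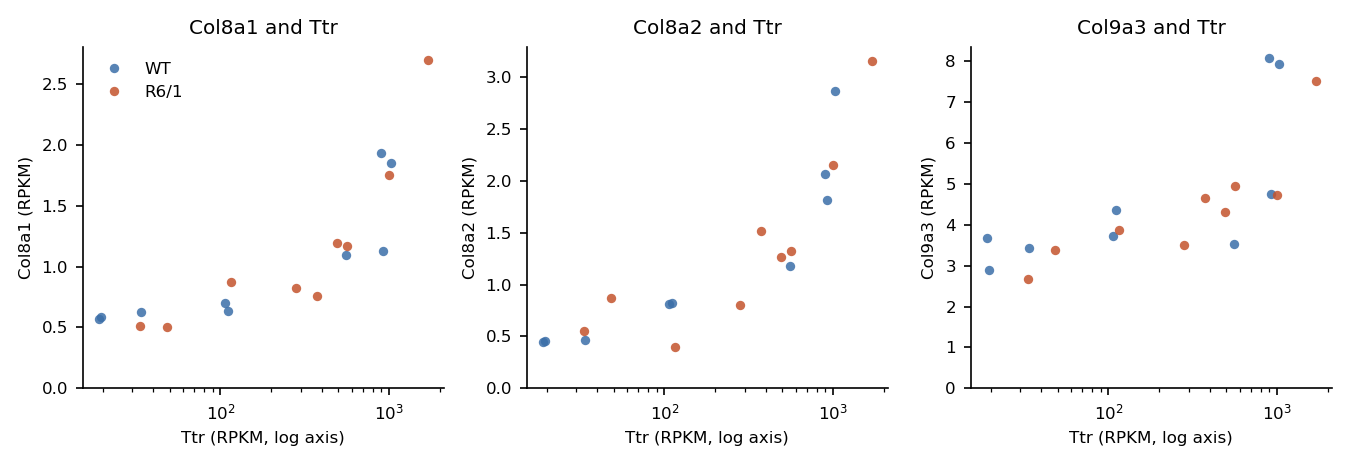
Expression (RPKM) of Col8a1, Col8a2 and Col9a3 against Ttr (RPKM, log axis), with a point per library (9 WT in blue, 9 R6/1 in orange). Libraries above 500 RPKM of Ttr carry most of the high points, up to 2.69 RPKM of Col8a1, 3.15 of Col8a2 and 8.07 of Col9a3.

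Other members followed other lists. With the fibroblast and leptomeningeal list, Col1a2, Col3a1 and Col4a5 passed in WT (r 0.92, 0.92 and 0.88, exact permutation, adjusted p 0.0161, 0.0144 and 0.0436) and none passed in R6/1. With the endothelial list, Col20a1, Col9a2 and Col11a2 passed in WT (r 0.94, 0.92 and 0.89, exact permutation, adjusted p 0.0144, 0.00238 and 0.0436) and none in R6/1. With the mural list, Col1a2, Col3a1 and Col11a2 passed in WT (r 0.94, 0.93 and 0.85, exact permutation, adjusted p 0.0144, 0.0450 and 0.0369), and Col5a2, Col11a2 and Col27a1 in R6/1 (r 0.93, 0.88 and 0.86, adjusted 0.0144, 0.0410 and 0.0436). Col11a2 with the mural list is the one relation of these that passed in both genotypes. Without the 2 libraries farthest from the median of the list, these 12 values of r lay between 0.50 and 0.88. By Spearman's rho only Col9a2 with the endothelial list in WT passed (0.98, exact permutation, adjusted p 0.00536). Whether any relation differs between genotypes was not tested.

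Genes that make, cut, anchor and degrade collagen were described from a list of 55 genes in the table, of which 45 were tested. Of these, 6 rose in R6/1 (13.3%, beside 24.8% of all tested genes) and 19 fell (42.2%, beside 23.5%), and the median log2 fold change was -0.11. Among 18 tested genes of chain modification and folding, 4 rose and 9 fell (22.2% and 50.0%). Fkbp14, a folding enzyme of the endoplasmic reticulum, went from 5.77 ± 0.965 to 8.75 ± 1.07 RPKM (0.57 on the log2 scale, limma adjusted p = 2.42e-05). P4ha2, a prolyl hydroxylase, and Plod3, a lysyl hydroxylase, rose less (0.30 and 0.18, adjusted p 5.63e-04 and 0.0161). P3h3, of the family of prolyl 3-hydroxylases, fell from 6.83 ± 1.42 to 4.15 ± 0.479 RPKM (-0.64, limma adjusted p = 3.48e-05).

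Among the enzymes that trim procollagen, Adamts3, which removes the amino-terminal propeptide, fell from 4.35 ± 0.481 to 1.75 ± 0.244 RPKM with no overlap of the genotypes (log2 fold change -1.11, limma adjusted p = 3.55e-10). Its relative Adamts14 rose from 0.359 ± 0.166 to 0.889 ± 0.430 RPKM (0.66, limma adjusted p = 0.00184), and passed the filter only through its R6/1 level. Bmp1, which removes the carboxy-terminal propeptide, fell from 9.26 ± 2.05 to 5.33 ± 0.507 RPKM (-0.72, limma adjusted p = 2.02e-05). In all, 1 rose and 4 fell (10.0% and 40.0%) among 10 tested genes of propeptide processing and cross-linking.

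Among 10 tested genes of turnover, 1 rose and 4 fell, the same shares. Timp2, an inhibitor of matrix metalloproteinases, rose from 85.0 ± 16.3 to 142 ± 13.8 RPKM, again with no overlap (log2 fold change 0.75, limma adjusted p = 2.00e-06). Mmp15, a membrane-bound metalloproteinase, fell from 5.68 ± 1.32 to 3.54 ± 1.5 RPKM (-0.68, limma adjusted p = 0.00589). Of 7 tested receptors none rose and 2 fell (28.6%, near the share of all genes), among them Itga11, the alpha 11 integrin chain that binds fibrillar collagen, from 0.746 ± 0.187 to 0.288 ± 0.0483 RPKM (-0.65, limma adjusted p = 6.62e-06), which passed the filter only through its WT level. With depth set by recovered reads, 12 genes of the whole list were called lower (26.7%, beside 17.5% of all genes in that fit). With the mural list as covariate there were 11 (24.4%), close to the 21.0% of all genes.

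Lamin B1 domains are long stretches of chromatin at the nuclear lamina. Starts of 9 of the 44 members lay in a WT domain (20.5%) and 8 in an R6/1 domain (18.2%), beside 20.1% and 16.1% of the 18867 protein-coding genes with coordinates. Col3a1, Col5a2, Col8a1, Col10a1, Col11a1, Col14a1, Col22a1 and Col28a1 were in a domain in both genotypes. Col1a2 (chr6:4454814-4491543, plus strand) was in a WT domain, chr6:3034001-28046000, and 2501 kb from the nearest R6/1 domain. Col3a1 and Col5a2, tail to tail on chromosome 1 with 24614 bases between them, shared a domain, chr1:44252001-50986000 in WT and chr1:44215001-50949000 in R6/1. Of the 9 members in WT domains, 6 were tested, of which Col5a2 and Col22a1 fell and none rose. Calls of lower made up 51.9% of all tested members and 23.5% of all tested genes. With 1 domain list per genotype, a change of domain has no replicate spread.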

How the data were processed

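RNA-seq values were deposited as RPKM for each library, and the submitters' processing notes name TopHat, DESeq2 and build mm9 (the counter, annotation and versions are not given in the sources used here). The authors' deposited table gives the mean normalized count (a signal over all libraries), log2 fold changes, a test score and p-values. Lamin B1 domains with the caller's score are as deposited, on mm9, made with Bowtie per the submitters' processing notes, and that score was not used. RPKM values were whole multiples of 1 read in 99.87 to 99.91% of cases (tolerance 0.05), and the recovered reads gave the depth and a voom fit. Genes whose mean over all libraries reached 0.5 RPKM entered limma 3.58.1 (trend, R 4.3.3) on log2(RPKM + 0.5), with all 18 RNA libraries. Correlations used SciPy 1.17.1 and NumPy 2.4.6. The fit was tested on simulated data. Every collagen gene is named, with library ranges for those called and the 6 most abundant, as are the 5 largest increases and decreases among called pathway genes, and the 5 highest and 3 lowest partner pairs by r in WT. The members and lists were chosen with earlier results of these data known. Libraries are called separate replicates by the protocol, and no batch is named in the labels. Sequences were read from the NCBIM37 genome. Alternatives changed the pseudocount, filter, scaling, test, covariates and libraries.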

Additional observations from a re-analysis of the deposited data

Results flagged for a closer look

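For 2 of the 54 groups of 9 libraries (27 members in each genotype), the highest library lay apart from the rest by more than Dixon's limit, and chance alone gives about 1 in 20 groups, here 2.7. Col3a1 was at 1.51 RPKM in WT replicate 5, and the next WT library was at 0.883. Col9a3 was at 7.50 RPKM in R6/1 replicate 3, and the next R6/1 library was at 4.94. These are the libraries with the highest level of most members in WT and with the highest Ttr in R6/1, and the part of either in these values was not tested.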

How the results depend on the processing

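Of the 15 calls, 11 held in every alternative that tested them (4 in all 35, and 7 in 34, the other being the filter of 2 RPKM). The count of members higher in R6/1 was 2 with no filter and 2 in the authors' deposited table. The count lower was 6 among genes of at least 2 RPKM and 22 in the authors' deposited table, with the fewer genes tested in the former. Leaving out 1 library at a time gave 12 to 17 lower, 1 higher and a median log2 fold change of -0.33 to -0.23. Whether equal replicate numbers pair libraries is not stated. Same-numbered pairs had an r from -0.05 to 0.24, and 3 of 9 were above 0.1. Only 2 WT libraries correlated best with their own number. Such values cannot exclude a weak pairing. A replicate block gave 15 lower and 1 higher. Pathway genes called lower numbered 12 with depth set by recovered reads, 11 with the mural list and 15 to 20 without 1 library, and those called higher 6 to 7. The median pairwise r in WT was 0.52 at 2 RPKM or more, 0.60 given the choroid plexus list, 0.27 without the 3 libraries that stood apart and 0.35 to 0.45 without 1 library. In R6/1 it was -0.03 at 2 RPKM or more and -0.02 to 0.26 without 1 library. At 2 RPKM or more only 2 partner pairs, Col4a1 with Col4a2 and Col9a2 with Col9a3, had both genes tested, and 1 passed in each genotype. Of the 11 pairs, those past the threshold in WT numbered 2 without the 3 libraries and 2 to 6 without 1 library. In R6/1 they numbered 1 by Spearman's rho, 3 given the choroid plexus list, 1 without the 3 libraries and 1 to 5 without 1 library. Uncalled members changed sign as follows, and the cause was not tested. Col9a3 had a log2 fold change of 0.01 with depth set by recovered reads, 0.03 with voom, 0.05 without the 3 libraries and 0.03 without those above 500 RPKM of Ttr, and from -0.15 to 0.04 without 1 library. Col8a1 ran from -0.04 to 0.19 and Col8a2 from -0.02 to 0.26 without 1 library. With the endothelial list Col8a2 was at -0.17 and Col27a1 at 0.11, and with the mural list Col1a2 was at 0.07, Col3a1 at 0.06, Col8a2 at -0.04 and Col27a1 at 0.13. The endothelial, mural and Ttr alternatives and that without 3 libraries were chosen after seeing the data. Depth limits the members under 0.5 RPKM, whose reads per library are few.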
